A study of Mus musculus with 4 samples.

Results

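Natural killer (NK) cells of a malignant pleural effusion were picked by their transcripts from droplet single-cell RNA sequencing, in which each RNA molecule carries a unique molecular identifier (UMI). A kept barcode had at least 1000 UMIs and 200 genes and at most 10% of its UMIs from mitochondrially encoded genes. It was taken as an NK cell on 3 conditions. Ncr1, Klre1, Klrb1c and Eomes had to sum to at least 2 UMIs, the Cd3d, Cd3e and Cd3g genes of T cells to at most 1 UMI, and the macrophage gene Lyz2 had to stay under 20 per 10000 UMIs. These limits selected 193 of 13578 kept cells, with 32 of 3548 in the combination, 91 of 3830 in LNP-cGAMP, 33 of 3379 in anti-PD-L1 and 37 of 2821 in PBS. Because the marker genes, the Cd3 genes and Lyz2 chose the cells, their levels are given as a description.

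All mice were C57BL/6 mice with effusions raised by Lewis lung carcinoma (LLC), a transplantable mouse lung carcinoma line. On day 11 they received, into the pleural cavity, LNP-cGAMP (1 µg; a nanoparticle form of cGAMP) plus the anti-PD-L1 antibody 10F.9G2 (30 µg), LNP-cGAMP (1 µg) alone, anti-PD-L1 (30 µg) alone, or PBS. On day 13, 48 h later, the cells of the pleural fluid were taken, red blood cells were lysed, and the cells of 3 mice were pooled into 1 library per treatment, for which 4000 cells were loaded. No library has a replicate, so no test was possible, the differences below describe these 4 pools, and treatment, pool and library cannot be told apart.

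NK cells are innate lymphocytes that kill stressed, infected or transformed cells without prior sensitization. They read a balance of activating receptors, such as NKp46 (Ncr1) and NKG2D (Klrk1), and inhibitory receptors for MHC class I, such as many of the Ly49 (Klra) family and CD94/NKG2A (Klrd1, Klrc1). On engagement they release granules in which perforin (Prf1) opens the way for granzymes (Gzma, Gzmb), proteases that trigger death of the target cell. cGAMP activates STING, an adaptor upstream of type I interferon, and interferons and interleukin-15 from myeloid cells are known to prime NK cells.

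The promoters of 4 granule genes that carry much of the results are shown because T-box factors (Eomes and T-bet, the product of Tbx21) and Runx factors are known to control such genes in NK cells. Each line is the 250 bases before the RefSeq transcription start (GRCm38.p6), 5′ to 3′ on the strand of the gene. The promoter of Gzma lies at chr13:113100982-113101231 (minus strand), that of Gzmb at chr14:56262335-56262584 (minus strand), that of Prf1 at chr10:61297586-61297835 (plus strand) and that of Nkg7 at chr7:43436888-43437137 (plus strand). Capitals mark AGGTGT, a T-box motif (ACACCT on the other strand), and TGTGGT, a Runx motif (ACCACA on the other strand), and no match overlapped another.
Gzma: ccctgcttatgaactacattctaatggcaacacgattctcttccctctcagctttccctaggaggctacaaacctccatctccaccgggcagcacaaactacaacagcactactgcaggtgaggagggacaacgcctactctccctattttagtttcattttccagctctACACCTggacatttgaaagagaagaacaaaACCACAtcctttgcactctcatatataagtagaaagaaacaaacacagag
Gzmb: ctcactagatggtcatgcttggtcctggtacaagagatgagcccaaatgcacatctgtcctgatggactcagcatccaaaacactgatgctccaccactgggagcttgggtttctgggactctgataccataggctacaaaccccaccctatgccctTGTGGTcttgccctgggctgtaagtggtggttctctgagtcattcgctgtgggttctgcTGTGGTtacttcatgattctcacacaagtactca
Prf1: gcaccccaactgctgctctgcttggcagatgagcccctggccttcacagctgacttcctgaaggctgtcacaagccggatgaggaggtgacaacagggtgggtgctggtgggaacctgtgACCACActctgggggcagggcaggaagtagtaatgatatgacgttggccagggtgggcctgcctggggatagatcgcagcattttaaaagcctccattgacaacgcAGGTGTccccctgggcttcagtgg
Nkg7: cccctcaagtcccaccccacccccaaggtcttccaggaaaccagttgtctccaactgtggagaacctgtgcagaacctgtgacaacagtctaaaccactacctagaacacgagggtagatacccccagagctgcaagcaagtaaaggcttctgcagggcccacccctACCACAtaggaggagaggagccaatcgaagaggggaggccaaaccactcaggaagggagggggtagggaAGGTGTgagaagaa
On either strand, AGGTGT was found in 11.8% and TGTGGT in 14% of 32851 RefSeq promoters, searched over the 250 bases before the start. Gzma held AGGTGT at 80 and TGTGGT at 50 bases before the start, both on the other strand. Prf1 held AGGTGT at 24 bases and, on the other strand, TGTGGT at 130 bases. Nkg7 held AGGTGT at 14 bases and, on the other strand, TGTGGT at 83 bases. Gzmb held 2 TGTGGT matches, at 93 and 34 bases, and 0 AGGTGT matches in this window. A match is a description of letters, not a binding site or a cause.

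The libraries held 88855120 UMIs in the combination, 68828158 UMIs in LNP-cGAMP, 87696440 UMIs in anti-PD-L1 and 86269137 UMIs in PBS. Kept cells had medians of 16485.5 to 18603.5 UMIs. The NK cells summed to 481222 UMIs in the combination, 2219961 UMIs in LNP-cGAMP, 378237 UMIs in anti-PD-L1 and 378639 UMIs in PBS. The median NK cell held 13303.5 UMIs in the combination, 23403 UMIs in LNP-cGAMP, 7941 UMIs in anti-PD-L1 and 6740 UMIs in PBS. NK cells of LNP-cGAMP thus held the most UMIs, and their values carry the least counting error. Over all kept cells LNP-cGAMP had the lowest median, at 16485.5 UMIs. No NK barcode was shared with another library. By Xist and Y-linked genes, 5 NK cells of the combination were male and 17 female, against 78 and 0 in LNP-cGAMP, 2 and 26 in anti-PD-L1 and 26 and 0 in PBS, the others having no call. Sex and treatment therefore cannot be told apart except in LNP-cGAMP against PBS. RNA that matched near-empty droplets was estimated, as a share of NK cell RNA, at 3.24% with the combination, 3.45% with LNP-cGAMP, 8.55% with anti-PD-L1 and 3.51% with PBS. The estimate rests on Lyz2, S100a8, S100a9, Apoe, C1qa, C1qb and C1qc alone. In anti-PD-L1, 1 cell held 271 of 311 S100a9 and 200 of 216 S100a8 UMIs, which raises the estimate of that library.

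Few members lay at the marker limit of the rule. At the Cd3 limit lay 17 of 91 members in LNP-cGAMP and 4 of 32 in the combination. Members with exactly 2 marker UMIs numbered 2 with the combination, 3 with LNP-cGAMP, 1 with anti-PD-L1 and 4 with PBS. Cells that met the other limits and had 1 marker UMI, and so stayed out, numbered 22 with the combination, 111 with LNP-cGAMP, 11 with anti-PD-L1 and 26 with PBS. The median member held 20 marker UMIs in the combination, 34 marker UMIs in LNP-cGAMP, 16 marker UMIs in anti-PD-L1 and 10 marker UMIs in PBS. Members with a single Cd3 UMI numbered 4 with the combination, 17 with LNP-cGAMP, 1 with anti-PD-L1 and 1 with PBS, and cells with enough marker UMIs that 2 or more Cd3 UMIs kept out numbered 89 with the combination, 152 with LNP-cGAMP, 38 with anti-PD-L1 and 18 with PBS. The highest Lyz2 level of a member was 8.92 per 10000 in the combination, 3.88 per 10000 in LNP-cGAMP, 5.67 per 10000 in anti-PD-L1 and 14 per 10000 in PBS, under the limit of 20.

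Most members carried several of the rule genes and, outside the rule, Gzma. The rule genes chose the cells, so their values below describe the members and are no support for the label. All 4 marker genes were detected in 19 of 32 members with the combination, 69 of 91 members with LNP-cGAMP, 26 of 33 members with anti-PD-L1 and 20 of 37 members with PBS. Gzma, which the rule did not use, was detected in 29 members in the combination, 88 members in LNP-cGAMP, 32 members in anti-PD-L1 and 28 members in PBS. Ncr1 (ENSMUSG00000062524, GRCm38 chr7:4337724-4345164) summed to 297 CPM in the combination, 409.9 CPM in LNP-cGAMP, 486 CPM in anti-PD-L1 and 312 CPM in PBS, where CPM are UMIs per 1000000 UMIs of the summed NK cells. Eomes (ENSMUSG00000032446, GRCm38 chr9:118478212-118486132) summed to 129 CPM in the combination, 155 CPM in LNP-cGAMP, 174 CPM in anti-PD-L1 and 124 CPM in PBS. A list of 15 other NK genes, among them Klrd1, Nkg7, Klrk1 and Tyrobp, summed to 16055 CPM in the combination, 17057 CPM in LNP-cGAMP, 16463 CPM in anti-PD-L1 and 10076 CPM in PBS, and none of the 15 was at 0 in any library.

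A small set of members went against the label. In 9 members Klre1 was the only marker gene detected, Gzma and Nkg7 were at 0, and Cd74, the invariant chain of MHC class II, stood at 192 to 352 per 10000 UMIs. They numbered 1 with the combination, 1 with LNP-cGAMP, 1 with anti-PD-L1 and 6 with PBS. A further LNP-cGAMP member had Gzma, Cd74 at 63.2 per 10000 and 25 UMIs of the B cell gene Cd79a. No other member exceeded 8.15 per 10000. The 6 PBS cells held 39.7% of the NK UMIs of that library, with a median of 25461 UMIs against 5608 in the other 31. They contained 4080 of 4096 Cd74 UMIs of PBS, 1634 of 1640 of H2-Aa, 1920 of 1926 of Ifitm1 and 2047 of 2104 of Cst3. They also held 116 of 381 Klrd1, 77 of 320 Klrk1 and 282 of 750 Tyrobp UMIs of PBS, but 0 of 425 of Nkg7. Of these listed NK genes only Nkg7 was at 0 in them. Their parts of the Klrd1 (30.4%), Klrk1 (24.1%) and Tyrobp (37.6%) UMIs lay below their 39.7% of all NK UMIs of PBS. A list of 12 dendritic cell genes summed to 2028 CPM in the combination, 637 CPM in LNP-cGAMP, 3448 CPM in anti-PD-L1 and 22306 CPM in PBS over all members. Without the 10 cells above 30 Cd74 UMIs per 10000 (called Cd74-high below) it summed to 82.3 CPM in the combination, 73.8 CPM in LNP-cGAMP, 139 CPM in anti-PD-L1 and 149 CPM in PBS. The Cd74-high cells do not match the NK label, so comparisons with PBS are given with and without them. That limit was set after the values had been seen. It did not take out members high in macrophage, neutrophil or interferon genes, which are described below. An LNP-cGAMP member with 20628 UMIs, 2 marker UMIs and 0 Gzma UMIs also stayed in.

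**Figure D1:**
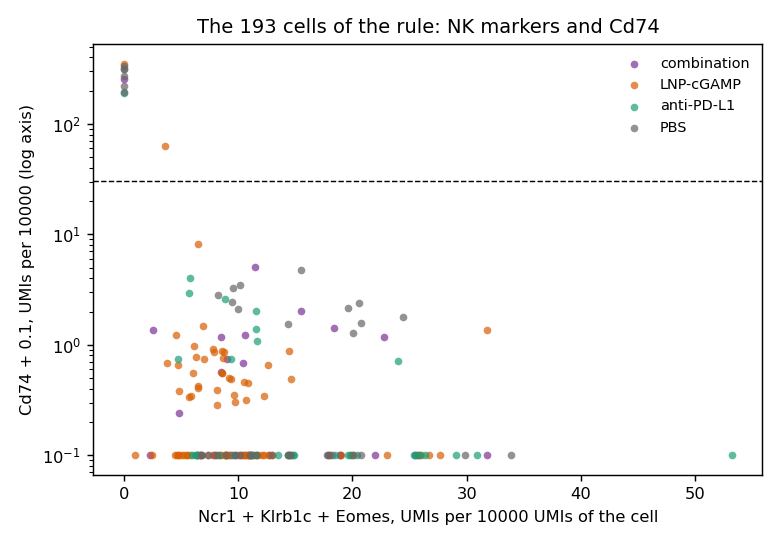
Each point is 1 of the 193 cells of the rule, coloured by library. The x axis gives Ncr1, Klrb1c and Eomes together in UMIs per 10000 and the y axis Cd74 in UMIs per 10000 plus 0.1 on a log axis. The 10 cells above the dashed line at 30 Cd74 UMIs per 10000, 6 of them from PBS, lie apart from all others, which reach at most 8.15.

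Markers of other cells were not all low in the remaining 183 cells. A list of 9 T cell genes outside the rule summed to 115 CPM in the combination, 117 CPM in LNP-cGAMP, 110 CPM in anti-PD-L1 and 127 CPM in PBS, and the numbers of them at 0 were 6 with the combination, 3 with LNP-cGAMP, 6 with anti-PD-L1 and 7 with PBS. A list of 7 B cell genes summed to 2.17 CPM in the combination, 1.37 CPM in LNP-cGAMP, 0 CPM in anti-PD-L1 and 0 CPM in PBS. Markers of type 1 innate lymphoid cells, which share Ncr1 and Klrb1c with NK cells, summed to 82.3 CPM in the combination, 97.6 CPM in LNP-cGAMP, 75.2 CPM in anti-PD-L1 and 179.5 CPM in PBS, over 11 genes. Among them Itga1, which marks them, held 0 UMIs in the combination, 13 UMIs in LNP-cGAMP, 0 UMIs in anti-PD-L1 and 1 UMI in PBS. The 18 macrophage genes summed to 1184 CPM in the combination, 1486 CPM in LNP-cGAMP, 769.7 CPM in anti-PD-L1 and 1659.5 CPM in PBS and the 14 neutrophil genes to 113 CPM in the combination, 218 CPM in LNP-cGAMP, 1823 CPM in anti-PD-L1 and 144 CPM in PBS. The neutrophil value of anti-PD-L1 came mostly from 1 cell, which held 271 of 311 S100a9 and 200 of 216 S100a8 UMIs. In LNP-cGAMP the highest cell held UMIs of the macrophage list at 225 per 10000, against an upper quartile of 10.8. The highest cells of the other libraries held 44.6 per 10000 in the combination, 41.6 in anti-PD-L1 and 40.6 in PBS. The type of that LNP-cGAMP cell was not settled, and it was kept. The 10 tumour cell genes summed to 1836 CPM in the combination, 1260 CPM in LNP-cGAMP, 1586 CPM in anti-PD-L1 and 871 CPM in PBS. Nearly all of it was S100a6, a calcium-binding protein gene that many cell types express, at 1834 CPM in the combination, 1258 CPM in LNP-cGAMP, 1583 CPM in anti-PD-L1 and 867 CPM in PBS, and the numbers of the 10 at 0 were 8 with the combination, 6 with LNP-cGAMP, 8 with anti-PD-L1 and 8 with PBS. The S100a6 log2 ratios to PBS were 1.04 with the combination, 0.51 with LNP-cGAMP and 0.83 with anti-PD-L1. The part of these transcripts in the results below was not tested beyond the values given.

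NK cells made up a larger share of the effusion in LNP-cGAMP than in the other 3 libraries. With 95% intervals of counting error, the share was 0.902% (0.618 to 1.27) for the combination, 2.38% (1.92 to 2.91) for LNP-cGAMP, 0.977% (0.673 to 1.37) for anti-PD-L1 and 1.31% (0.925 to 1.8) for PBS. The interval of LNP-cGAMP did not overlap the other 3, which overlapped each other. Leaving out the Cd74-high cells gave shares of 0.874% with the combination, 2.32% with LNP-cGAMP, 0.947% with anti-PD-L1 and 1.1% with PBS. More UMIs make the marker rule easier to meet, so it was also applied to cells thinned to 5000 UMIs. It then found 26 of 2727 cells (0.953%) for the combination, 93 of 2630 cells (3.54%) for LNP-cGAMP, 26 of 2353 cells (1.1%) for anti-PD-L1 and 20 of 1836 cells (1.09%) for PBS. Thinning also lowers Cd3 UMIs, so cells that the Cd3 limit kept out at full depth could enter. At full depth these numbered 89 with the combination, 152 with LNP-cGAMP, 38 with anti-PD-L1 and 18 with PBS. How many of them entered was not counted, so the thinned shares do not isolate depth. A share is relative to the other cells of the fluid, and the number of NK cells in the fluid was not measured.

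Among lymphocytes the libraries were less separated. Of NK, T and B cells together, NK cells were 21.5% (32 of 149, 15.2 to 28.9) for the combination, 38.9% (91 of 234, 32.6 to 45.5) for LNP-cGAMP, 19.2% (33 of 172, 13.6 to 25.9) for anti-PD-L1 and 32.5% (37 of 114, 24 to 41.9) for PBS. Here the intervals of LNP-cGAMP and PBS overlapped. Cells with 2 or more UMIs of both the NK markers and the Cd3 genes entered none of these counts. They numbered 89 with the combination, 152 with LNP-cGAMP, 38 with anti-PD-L1 and 18 with PBS. Counting them as NK or T cells would change these shares, and their type was not settled. T cells, taken with at least 2 Cd3 UMIs, at most 1 NK marker UMI and the same Lyz2 limit, numbered 94 with the combination, 127 with LNP-cGAMP, 107 with anti-PD-L1 and 61 with PBS. B cells numbered 23 with the combination, 16 with LNP-cGAMP, 32 with anti-PD-L1 and 16 with PBS.

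**Figure D2:**
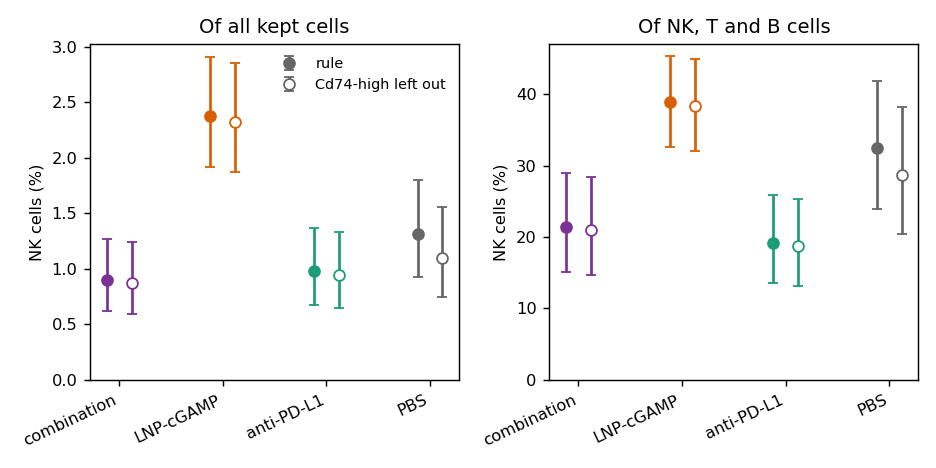
NK cells as a percentage of all kept cells and of NK, T and B cells together, for the combination, LNP-cGAMP, anti-PD-L1 and PBS, with exact 95% Clopper-Pearson intervals of counting error. Filled points give all members and open points those without the Cd74-high cells. Of all kept cells LNP-cGAMP stands at 2.38%, above the other intervals, and among lymphocytes its interval overlaps that of PBS.

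Several effector genes of the killing granule stood higher in the treated libraries than in PBS, and the number depended on which cells were summed. The 23 listed granule genes summed to 17539 CPM in the combination, 19539 CPM in LNP-cGAMP, 15067 CPM in anti-PD-L1 and 7070.1 CPM in PBS, and without the Cd74-high cells to 18161 CPM in the combination, 19713 CPM in LNP-cGAMP, 16114 CPM in anti-PD-L1 and 10609.5 CPM in PBS. A comparison took in genes with 20 or more UMIs in its 2 libraries together and 100 CPM or more in either, and a gene was counted at 2-fold or more on the log2(CPM + 50) scale. The 3 comparisons with PBS share that library. Measured granule genes counted as higher than PBS were 4 of 12 with the combination, 8 of 16 with LNP-cGAMP and 5 of 11 with anti-PD-L1, with median log2 ratios of 0.73 with the combination, 0.99 with LNP-cGAMP and 0.89 with anti-PD-L1, and 0 were lower. Over all genes 1.7% were higher in the combination (28 of 1643), 3.11% in LNP-cGAMP (53 of 1706) and 1.1% in anti-PD-L1 (18 of 1640), and the median log2 ratio was 0.05 with the combination, 0.09 with LNP-cGAMP and 0.04 with anti-PD-L1. Without the Cd74-high cells the counts were 2 of 11 with the combination, 7 of 15 with LNP-cGAMP and 1 of 11 with anti-PD-L1, with medians of 0.25 with the combination, 0.70 with LNP-cGAMP and 0.57 with anti-PD-L1, while the percentages over all genes were 1.42% with the combination, 2.97% with LNP-cGAMP and 0.867% with anti-PD-L1. Leaving out cells above 2 times the median UMI total gave 2 of 11 with the combination, 4 of 12 with LNP-cGAMP and 2 of 11 with anti-PD-L1, with medians of 0.11 with the combination, 0.29 with LNP-cGAMP and 0.33 with anti-PD-L1. A mitochondrial limit of 5% gave 6 of 12 with the combination, 12 of 16 with LNP-cGAMP and 7 of 11 with anti-PD-L1, with medians of 1.27 with the combination, 1.69 with LNP-cGAMP and 1.24 with anti-PD-L1. Among all genes 101 of 1742 with the combination, 124 of 1743 with LNP-cGAMP and 86 of 1728 with anti-PD-L1 were higher at that limit. A gene that entered only through its level in 1 library had to differ, so these counts are descriptions.

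Gzmb, granzyme B (ENSMUSG00000015437, GRCm38 chr14:56258838-56262260), stood apart most among the granule genes found in many cells. It was at 3533 CPM in the combination (3367 to 3705), 3373 CPM in LNP-cGAMP (3298 to 3451), 1158 CPM in anti-PD-L1 (1052 to 1272) and 238 CPM in PBS (191 to 292). In these sums both cGAMP libraries stood highest, anti-PD-L1 between, and PBS lowest. The folds over PBS were 14.9-fold in the combination (12 to 18.6), 14.2-fold in LNP-cGAMP (11.5 to 17.7) and 4.87-fold in anti-PD-L1 (3.88 to 6.18), and 9.34-fold in the combination, 8.66-fold in LNP-cGAMP and 3.22-fold in anti-PD-L1 without the Cd74-high cells, where PBS was at 394 CPM. The combination sum rested on 1 cell, with 1037 of its 1700 Gzmb UMIs. Without the highest cell of each library the levels were 1614 CPM in the combination, 3185 CPM in LNP-cGAMP, 1056 CPM in anti-PD-L1 and 179 CPM in PBS.

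Per cell, LNP-cGAMP led in Gzmb. The median NK cell held Gzmb UMIs at 8.12 per 10000 in the combination, 24.7 per 10000 in LNP-cGAMP, 7.87 per 10000 in anti-PD-L1 and 0.624 per 10000 in PBS, and at 1.18 in PBS without the Cd74-high cells. The share of cells with a Gzmb UMI was 84.4% with the combination, 97.8% with LNP-cGAMP, 90.9% with anti-PD-L1 and 51.4% with PBS. With each cell thinned to 1000 UMIs the shares were 53.1% with the combination, 80.2% with LNP-cGAMP, 51.5% with anti-PD-L1 and 27% with PBS. Lyz2-high cells, which should lack the gene, gave 0.736% with the combination, 2.58% with LNP-cGAMP, 0% with anti-PD-L1 and 0.0608% with PBS at that depth, and their median UMIs before thinning were 21455 with the combination, 18143 with LNP-cGAMP, 29182.5 with anti-PD-L1 and 31434.5 with PBS. The 0% of anti-PD-L1 was 0 of 1830 cells, which allows a share of up to 0.164% at 3 counts of the total, and the exact 95% interval reaches 0.201%.

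**Figure D3:**
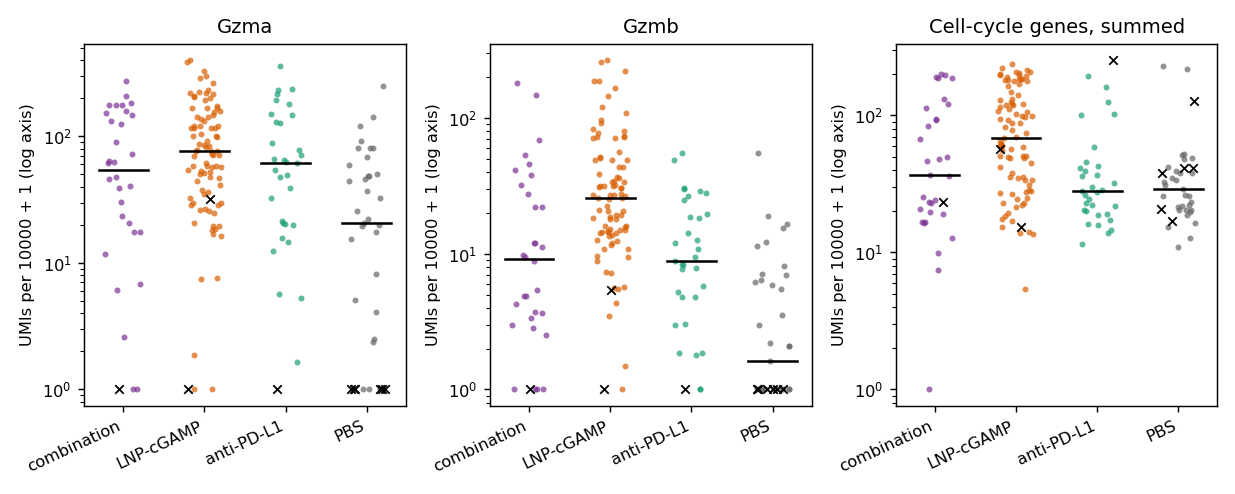
Values of single NK cells by library, in UMIs per 10000 plus 1 on a log axis, for Gzma, Gzmb and the summed cell-cycle genes, with 1 point per cell, crosses for Cd74-high cells and a bar at the median. The Gzmb medians are 8.12 per 10000 in the combination, 24.7 per 10000 in LNP-cGAMP, 7.87 per 10000 in anti-PD-L1 and 0.624 per 10000 in PBS, and cells of the libraries overlap.

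Gzma, granzyme A (ENSMUSG00000023132, GRCm38 chr13:113093825-113100981), was the most abundant granule transcript. It was at 7797 CPM in the combination (7549 to 8050.4), 8811 CPM in LNP-cGAMP (8687 to 8935), 7009 CPM in anti-PD-L1 (6745 to 7281) and 2562 CPM in PBS (2403 to 2728). The 3 treated libraries lay close together and above PBS, at 3.04-fold in the combination (2.84 to 3.27), 3.44-fold in LNP-cGAMP (3.22 to 3.67) and 2.74-fold in anti-PD-L1 (2.54 to 2.95). With the Cd74-high cells left out PBS was at 4247 CPM and the folds were 1.91-fold in the combination, 2.1-fold in LNP-cGAMP and 1.81-fold in anti-PD-L1, so that of the log2 ratios of 0.93 with the combination, 1.06 with LNP-cGAMP and 0.85 with anti-PD-L1 only that of LNP-cGAMP passed 1. The per-cell medians were 53.7 per 10000 in the combination, 75.2 per 10000 in LNP-cGAMP, 60.6 per 10000 in anti-PD-L1 and 19.7 per 10000 in PBS. The quartiles ran from 32.9 to 140.5 in LNP-cGAMP and from 1.39 to 49.3 in PBS, so single cells overlapped.

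Prf1, perforin (ENSMUSG00000037202, GRCm38 chr10:61297833-61304680), also stood highest in both cGAMP libraries. It was at 204 CPM in the combination (165 to 248), 223 CPM in LNP-cGAMP (203 to 243), 97.8 CPM in anti-PD-L1 (68.9 to 135) and 31.7 CPM in PBS (16.4 to 55.4), from 98 UMIs in the combination, 494 UMIs in LNP-cGAMP, 37 UMIs in anti-PD-L1 and 12 UMIs in PBS. The intervals of both cGAMP libraries overlapped each other and lay above those of anti-PD-L1 and PBS. Prf1 was 6.43-fold (3.52 to 12.9) over PBS in the combination and 7.02-fold (3.98 to 13.7) in LNP-cGAMP. Leaving out the Cd74-high cells gave 4.04-fold and 4.28-fold. Anti-PD-L1 against PBS was under the level filter for Prf1. The combination cell that held 1037 Gzmb UMIs also held 25 of the 98 Prf1 UMIs of that library. Without the highest cell of each library Prf1 was at 178 CPM in the combination, 216 CPM in LNP-cGAMP, 96.6 CPM in anti-PD-L1 and 24.2 CPM in PBS.

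Other proteins of the granule differed less. Nkg7 (ENSMUSG00000004612, GRCm38 chr7:43437073-43438249), a membrane protein needed for granule release, was at 2115 CPM in the combination, 2202 CPM in LNP-cGAMP, 2358 CPM in anti-PD-L1 and 1122 CPM in PBS. Its log2 ratios to PBS were 0.89 with the combination, 0.94 with LNP-cGAMP and 1.04 with anti-PD-L1, and 0.24 with the combination, 0.25 with LNP-cGAMP and 0.46 with anti-PD-L1 without the Cd74-high cells, which in PBS lacked Nkg7. Serpinb9, an inhibitor that shields the killer cell from granzyme B, was at 397 CPM in the combination, 385 CPM in LNP-cGAMP, 479 CPM in anti-PD-L1 and 177 CPM in PBS. Serpinb6b, a related serpin, was at 574 CPM in the combination, 436 CPM in LNP-cGAMP, 613 CPM in anti-PD-L1 and 214 CPM in PBS. Both serpins were, with the Cd74-high cells left out, within 2-fold of PBS in the 3 treated libraries, at 0.44 with the combination, 0.37 with LNP-cGAMP and 0.66 with anti-PD-L1 for Serpinb9 and 0.68 with the combination, 0.28 with LNP-cGAMP and 0.57 with anti-PD-L1 for Serpinb6b on the log2 scale.

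Gzmc, Gzmd, Gzme and Gzmg, neighbours of Gzmb in the genome, stood high in LNP-cGAMP and came largely from 1 cell each. Gzmd held 0 UMIs in the combination, 879 UMIs in LNP-cGAMP, 2 UMIs in anti-PD-L1 and 0 UMIs in PBS, 820 of them in 1 LNP-cGAMP cell. Gzme held 0 UMIs in the combination, 528 UMIs in LNP-cGAMP, 0 UMIs in anti-PD-L1 and 3 UMIs in PBS (523 in 1 cell) and Gzmg 0 UMIs in the combination, 413 UMIs in LNP-cGAMP, 0 UMIs in anti-PD-L1 and 0 UMIs in PBS (412 in 1 cell). Gzmc held 22 UMIs in the combination, 578 UMIs in LNP-cGAMP, 17 UMIs in anti-PD-L1 and 10 UMIs in PBS (295 in 1 cell). Without the highest cell, LNP-cGAMP had 27.2 CPM of Gzmd, 2.3 of Gzme and 0.46 of Gzmg. Gzmd, Gzme and Gzmg are close relatives in sequence, and how reads were split among them is not given in the sources used here. These genes are 4 of the 8 granule genes counted as higher in LNP-cGAMP than in PBS.

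Spp1, osteopontin (ENSMUSG00000029304, GRCm38 chr5:104435118-104441050), a secreted phosphoprotein, gave the highest log2 ratio over PBS in the combination and in LNP-cGAMP. It was at 2024 CPM in the combination (1899 to 2155), 1892 CPM in LNP-cGAMP (1835 to 1950), 613 CPM in anti-PD-L1 (537 to 698) and 47.5 CPM in PBS (28.2 to 75.1), from 974 UMIs in the combination, 4200 UMIs in LNP-cGAMP, 232 UMIs in anti-PD-L1 and 18 UMIs in PBS. The folds over PBS were 42.6-fold in the combination (26.8 to 72.1), 39.8-fold in LNP-cGAMP (25.2 to 67.2) and 12.9-fold in anti-PD-L1 (7.98 to 22.2), and 26.8-fold in the combination, 24.3-fold in LNP-cGAMP and 8.52-fold in anti-PD-L1 without the Cd74-high cells. In these sums both cGAMP libraries stood highest and PBS lowest. The combination cell that held 1037 Gzmb UMIs also held 457 of the 974 Spp1 UMIs, so the Gzmb and Spp1 sums of that library are not independent. Spp1 was detected in 20 cells in the combination, 72 cells in LNP-cGAMP, 13 cells in anti-PD-L1 and 6 cells in PBS. At 1000 UMIs a cell its share was 28.1% with the combination, 53.8% with LNP-cGAMP, 27.3% with anti-PD-L1 and 0% with PBS among NK cells and 16% with the combination, 23.8% with LNP-cGAMP, 5.79% with anti-PD-L1 and 8.88% with PBS among Lyz2-high cells, which express it. The NK share exceeded that of Lyz2-high cells in LNP-cGAMP and anti-PD-L1, where the exact 95% intervals did not overlap. In the combination the NK interval of 13.7% to 46.7% held the Lyz2-high share, so no order was detectable. In PBS 0 of 37 NK cells allow a share of up to 8.11% at 3 counts of the total, and the exact 95% interval reaches 9.49%, above the share of Lyz2-high cells, so no order was detectable there. Without the highest cell of each library the levels were 1259 CPM in the combination, 1820.3 CPM in LNP-cGAMP, 386 CPM in anti-PD-L1 and 31 CPM in PBS, and after subtraction of near-empty RNA 2076 CPM in the combination, 1917 CPM in LNP-cGAMP, 642 CPM in anti-PD-L1 and 41.2 CPM in PBS.

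**Figure D4:**
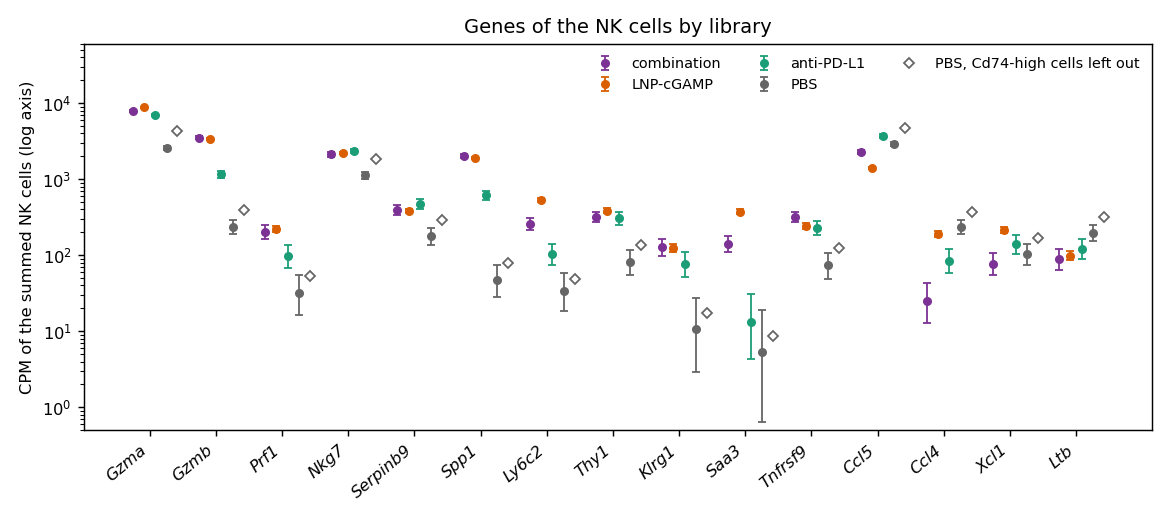
Levels of 15 genes in the summed NK cells of the combination, LNP-cGAMP, anti-PD-L1 and PBS, in CPM on a log axis, with exact 95% Poisson intervals of counting error. Open diamonds give PBS without its 6 Cd74-high cells. Gzmb and Spp1 stand highest in both cGAMP libraries, lower in anti-PD-L1 and lowest in PBS, whereas Ccl5 is lowest in LNP-cGAMP.

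Some genes of late NK maturation also stood above PBS. Of 14 listed, those measured and higher were 4 of 7 with the combination, 3 of 7 with LNP-cGAMP and 2 of 6 with anti-PD-L1, with median log2 ratios of 1.24 with the combination, 0.88 with LNP-cGAMP and 0.61 with anti-PD-L1. With the Cd74-high cells left out they were 2 of 6 with the combination, 3 of 6 with LNP-cGAMP and 0 of 5 with anti-PD-L1, with medians of 0.80 with the combination, 0.67 with LNP-cGAMP and 0.57 with anti-PD-L1. Among all genes 1.7% with the combination, 3.11% with LNP-cGAMP and 1.1% with anti-PD-L1 were higher with all members. Without the Cd74-high cells these shares were 1.42% with the combination, 2.97% with LNP-cGAMP and 0.867% with anti-PD-L1. Gzma and Serpinb6b are on this list too. Ly6c2 (ENSMUSG00000022584, GRCm38 chr15:75108158-75111970), a surface antigen of mature NK cells and of monocytes, was at 256 CPM in the combination (212 to 305), 536 CPM in LNP-cGAMP (506 to 567), 103 CPM in anti-PD-L1 (73.3 to 141) and 34.3 CPM in PBS (18.3 to 58.7). Its log2 ratios to PBS were 1.86 with the combination, 2.80 with LNP-cGAMP and 0.86 with anti-PD-L1, and 1.51 with the combination, 2.59 with LNP-cGAMP and 0.73 with anti-PD-L1 without the Cd74-high cells. At 1000 UMIs a cell the share of NK cells with Ly6c2 was 25% with the combination, 26.4% with LNP-cGAMP, 9.09% with anti-PD-L1 and 2.7% with PBS. In Lyz2-high cells, which express it, the share was higher in each library, at 43.9% with the combination, 54.2% with LNP-cGAMP, 28.5% with anti-PD-L1 and 11.9% with PBS, and how far their RNA entered the NK values was not tested. Klrg1, an inhibitory receptor of mature NK cells, was at 127 CPM in the combination, 123 CPM in LNP-cGAMP, 76.7 CPM in anti-PD-L1 and 10.6 CPM in PBS, from 61 UMIs in the combination, 274 UMIs in LNP-cGAMP, 29 UMIs in anti-PD-L1 and 4 UMIs in PBS. Its share at 1000 UMIs a cell was 9.38% with the combination, 6.59% with LNP-cGAMP, 6.06% with anti-PD-L1 and 2.7% with PBS among NK cells. Among Lyz2-high cells it was 1 of 1359 with the combination, and the 0 cells of the other libraries allow up to 0.43% with LNP-cGAMP, 0.164% with anti-PD-L1 and 0.182% with PBS at 3 counts of the total.

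Surface and activation genes gave further differences. Thy1 (CD90) was at 318 CPM in the combination, 386 CPM in LNP-cGAMP, 307 CPM in anti-PD-L1 and 81.9 CPM in PBS. The share of cells with Thy1 at 1000 UMIs a cell was 12.5% with the combination, 26.4% with LNP-cGAMP, 15.2% with anti-PD-L1 and 2.7% with PBS among NK cells and 0.147% with the combination, 0.287% with LNP-cGAMP, 0.0546% with anti-PD-L1 and 0% with PBS among Lyz2-high cells, where the 0% of PBS allows up to 0.182% at 3 counts of the total. Its log2 ratios to PBS were 1.48 with the combination, 1.73 with LNP-cGAMP and 1.44 with anti-PD-L1, and 1.04 with the combination, 1.25 with LNP-cGAMP and 1.03 with anti-PD-L1 without the Cd74-high cells, above 1 in all 3 treated libraries. Thy1 was the only gene of the early NK list, of which 8 of 14 were measured, counted as higher than PBS, and that list had medians of -0.14 with the combination, -0.10 with LNP-cGAMP and 0.01 with anti-PD-L1. Tnfrsf9 (4-1BB), a costimulatory receptor induced on activation, was at 318 CPM in the combination, 244 CPM in LNP-cGAMP, 227 CPM in anti-PD-L1 and 73.9 CPM in PBS, and 82 of its 153 UMIs in the combination lay in 1 cell. Ly6a (Sca-1) was at 1305 CPM in the combination, 1751 CPM in LNP-cGAMP, 978 CPM in anti-PD-L1 and 1281 CPM in PBS with all members, and in PBS 441 of 485 UMIs lay in the Cd74-high cells. Without those cells Ly6a was at 968 CPM in the combination, 1693 CPM in LNP-cGAMP, 570 CPM in anti-PD-L1 and 193 CPM in PBS, or, over PBS, 5.02-fold in the combination (3.68 to 7.01), 8.79-fold in LNP-cGAMP (6.53 to 12.1) and 2.96-fold in anti-PD-L1 (2.12 to 4.2).

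Saa3, an acute-phase gene of macrophages, was among the highest ratios. It was at 141 CPM in the combination, 376 CPM in LNP-cGAMP, 13.2 CPM in anti-PD-L1 and 5.28 CPM in PBS, and 526 of the 834 UMIs of LNP-cGAMP lay in 1 cell. At 1000 UMIs a cell its share was 25% with the combination, 17.6% with LNP-cGAMP, 0% with anti-PD-L1 and 0% with PBS among NK cells and 48.1% with the combination, 49.6% with LNP-cGAMP, 20.5% with anti-PD-L1 and 12.1% with PBS among Lyz2-high cells. The 0% values of NK cells allow up to 9.09% with anti-PD-L1 and 8.11% with PBS at 3 counts of the total, and their exact 95% intervals reach 10.6% and 9.49%. Subtraction of near-empty RNA left 25.8 CPM in the combination, 194 CPM in LNP-cGAMP, 0 CPM in anti-PD-L1 and 0 CPM in PBS. The part of RNA from Lyz2-high cells in the NK values of Saa3 was not tested beyond these values.

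Chemokine and cytokine genes did not have the order of the granule genes. Ccl5 (RANTES) was at 2273 CPM in the combination, 1405 CPM in LNP-cGAMP, 3717 CPM in anti-PD-L1 and 2863 CPM in PBS, and at 4738 CPM in PBS without the Cd74-high cells. LNP-cGAMP was lowest, also by the per-cell medians of 18.6 per 10000 in the combination, 7.5 per 10000 in LNP-cGAMP, 39.5 per 10000 in anti-PD-L1 and 46.7 per 10000 in PBS. The log2 ratios of Ccl5 to PBS were -0.33 with the combination, -1.0 with LNP-cGAMP and 0.37 with anti-PD-L1, and -0.98 with the combination, -1.74 with LNP-cGAMP and -0.34 with anti-PD-L1 without the Cd74-high cells. Ccl4, a chemokine of activated NK cells, held 12 UMIs in the combination, 422 UMIs in LNP-cGAMP, 32 UMIs in anti-PD-L1 and 89 UMIs in PBS, or 24.9 CPM in the combination, 190.1 CPM in LNP-cGAMP, 84.6 CPM in anti-PD-L1 and 235 CPM in PBS, and 54 of the PBS UMIs came from 1 cell. Xcl1, a chemokine that draws cross-presenting dendritic cells, was at 76.9 CPM in the combination, 214 CPM in LNP-cGAMP, 140.1 CPM in anti-PD-L1 and 103 CPM in PBS, within 2-fold of PBS in each treated library.

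Other cytokine genes were low. Ltb, lymphotoxin beta, was at 89.4 CPM in the combination, 99.1 CPM in LNP-cGAMP, 122 CPM in anti-PD-L1 and 198 CPM in PBS, and without the Cd74-high cells its log2 ratios to PBS were -1.35 with the combination, -1.30 with LNP-cGAMP and -1.09 with anti-PD-L1. Ifng, the signature cytokine of NK cells, held 7 UMIs in the combination, 46 UMIs in LNP-cGAMP, 7 UMIs in anti-PD-L1 and 15 UMIs in PBS, or 14.5 CPM in the combination, 20.7 CPM in LNP-cGAMP, 18.5 CPM in anti-PD-L1 and 39.6 CPM in PBS. Areg and Ccl1 were at 0 UMIs in all 4 libraries.

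Receptors and adaptors were mostly within 2-fold of PBS. Of 12 measured activating receptors 0 passed 2-fold in any comparison with PBS, with medians of 0.06 with the combination, 0.11 with LNP-cGAMP and 0.30 with anti-PD-L1, and -0.29 with the combination, -0.35 with LNP-cGAMP and -0.15 with anti-PD-L1 without the Cd74-high cells. Klrk1 (NKG2D) was at 748 CPM in the combination, 624 CPM in LNP-cGAMP, 854 CPM in anti-PD-L1 and 845 CPM in PBS. Klrd1 (CD94) was at 908 CPM in the combination, 924 CPM in LNP-cGAMP, 1092 CPM in anti-PD-L1 and 1006 CPM in PBS. Of the 9 or 10 signalling adaptors measured 0 passed 2-fold with all members, and Tyrobp (DAP12), which couples several activating receptors, was at 1515 CPM in the combination, 1551 CPM in LNP-cGAMP, 2017 CPM in anti-PD-L1 and 1981 CPM in PBS. The inhibitory receptors counted as higher were 1 of 10 with the combination, 2 of 11 with LNP-cGAMP and 2 of 9 with anti-PD-L1, and 1 was lower, in LNP-cGAMP. Among all genes 1.7% with the combination, 3.11% with LNP-cGAMP and 1.1% with anti-PD-L1 were higher, and 4.75% were lower in LNP-cGAMP. Klra1 (Ly49A) was at 129 CPM in the combination, 123 CPM in LNP-cGAMP, 333 CPM in anti-PD-L1 and 71.3 CPM in PBS, and 57 of its 126 UMIs in anti-PD-L1 came from 1 cell, without which it was at 208 CPM. Klra7 (Ly49G2) was at 291 CPM in the combination, 442 CPM in LNP-cGAMP, 465 CPM in anti-PD-L1 and 185 CPM in PBS, and at 307 CPM in PBS without the Cd74-high cells. Klrc1 (NKG2A) was at 131 CPM in the combination, 159 CPM in LNP-cGAMP, 156 CPM in anti-PD-L1 and 240.3 CPM in PBS, highest in PBS. Pdcd1, the gene of PD-1, held 0 UMIs in the combination, 1 UMI in LNP-cGAMP, 26 UMIs in anti-PD-L1 and 0 UMIs in PBS, and the 26 of anti-PD-L1 lay in 4 cells, 18 of them in 1.

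Cytokine receptors, transcription factors and homing genes were mostly within 2-fold of PBS. Of the 5 or 6 cytokine receptors measured 0 passed 2-fold with all members. Without the Cd74-high cells their medians were -0.33 with the combination, -0.51 with LNP-cGAMP and -0.27 with anti-PD-L1, and 1 of 7 was lower in anti-PD-L1. Il2rb, the receptor chain for interleukin-2 and interleukin-15, was at 326 CPM in the combination, 386 CPM in LNP-cGAMP, 307 CPM in anti-PD-L1 and 203 CPM in PBS. Of the NK transcription factors 5 were measured and 0 passed 2-fold in the 3 comparisons with PBS, with medians of -0.02 with the combination, -0.05 with LNP-cGAMP and 0.04 with anti-PD-L1, and -0.49 with the combination, -0.39 with LNP-cGAMP and -0.24 with anti-PD-L1 over 7 genes without the Cd74-high cells. Tbx21 (T-bet) was at 33.2 CPM in the combination, 64 CPM in LNP-cGAMP, 50.2 CPM in anti-PD-L1 and 63.4 CPM in PBS. Id2, a factor needed for NK development, was at 877 CPM in the combination, 1090.1 CPM in LNP-cGAMP, 1279.6 CPM in anti-PD-L1 and 1524 CPM in PBS. Of 13 measured homing genes 0 were higher and 1, Itgax, was lower in the combination (log2 ratio of -1.02), and Ccr2, a receptor for recruitment from blood, was at 490.4 CPM in the combination, 547 CPM in LNP-cGAMP, 484 CPM in anti-PD-L1 and 636 CPM in PBS. Cx3cr1, a receptor of mature circulating NK cells, held 0 UMIs in the combination, 3 UMIs in LNP-cGAMP, 0 UMIs in anti-PD-L1 and 0 UMIs in PBS.

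Genes of the cell cycle stood higher in both cGAMP libraries. Of 28 listed, those measured and higher than PBS were 7 of 22 with the combination, 12 of 26 with LNP-cGAMP and 0 of 16 with anti-PD-L1, with median log2 ratios of 0.77 with the combination, 0.95 with LNP-cGAMP and 0.53 with anti-PD-L1, and 0 were lower. Among all genes 1.7% with the combination, 3.11% with LNP-cGAMP and 1.1% with anti-PD-L1 were higher. Without the Cd74-high cells the counts were 4 of 22 with the combination, 7 of 26 with LNP-cGAMP and 0 of 17 with anti-PD-L1, with medians of 0.61 with the combination, 0.76 with LNP-cGAMP and 0.03 with anti-PD-L1. The shares among all genes were then 1.42% with the combination, 2.97% with LNP-cGAMP and 0.867% with anti-PD-L1. The value of anti-PD-L1 depended on the cells kept. At a mitochondrial limit of 5%, which left 16 NK cells in anti-PD-L1 and 20 in PBS, the counts were 15 of 20 with the combination, 23 of 26 with LNP-cGAMP and 15 of 17 with anti-PD-L1, with medians of 1.63 with the combination, 1.66 with LNP-cGAMP and 1.57 with anti-PD-L1, so that anti-PD-L1 no longer stood apart from both cGAMP libraries. Among all genes 101 of 1742 with the combination, 124 of 1743 with LNP-cGAMP and 86 of 1728 with anti-PD-L1 were then higher. Leaving out cells above 2 times the median UMI total gave 17 of 19 with the combination, 23 of 25 with LNP-cGAMP and 0 of 4 with anti-PD-L1, with medians of 1.53 with the combination, 1.85 with LNP-cGAMP and -0.02 with anti-PD-L1. The counts among all genes were there 56 of 1631 with the combination and 93 of 1717 with LNP-cGAMP. Mki67, a marker of cycling cells, was at 243 CPM in the combination, 211 CPM in LNP-cGAMP, 143 CPM in anti-PD-L1 and 66 CPM in PBS. Hmgb2, a chromatin protein of dividing cells, was at 1613 CPM in the combination, 1945 CPM in LNP-cGAMP, 1089 CPM in anti-PD-L1 and 699.9 CPM in PBS. The histone gene Hist1h2ap was at 1054 CPM in the combination (964 to 1149), 1070.3 CPM in LNP-cGAMP (1028 to 1114), 122 CPM in anti-PD-L1 (89 to 162) and 243 CPM in PBS (196 to 298). In PBS 77 of its 92 UMIs came from 1 cell.

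Cells differed in cell-cycle transcripts within each library. At 1000 UMIs a cell, at least 2 UMIs of 22 cell-cycle genes were found in a share of NK cells of 43.8% with the combination, 58.2% with LNP-cGAMP, 27.3% with anti-PD-L1 and 16.2% with PBS. The unthinned shares were 68.8% with the combination, 93.4% with LNP-cGAMP, 72.7% with anti-PD-L1 and 70.3% with PBS, and the thinned shares of Lyz2-high cells 7.65% with the combination, 2.44% with LNP-cGAMP, 10.4% with anti-PD-L1 and 8.7% with PBS. Over the cells that were not Cd74-high, 31 with the combination, 89 with LNP-cGAMP, 32 with anti-PD-L1 and 31 with PBS, Spearman's rho between UMI total and the proliferation list was 0.83 with the combination, 0.73 with LNP-cGAMP, 0.09 with anti-PD-L1 and 0.03 with PBS. Between Gzmb and the proliferation list rho was 0.07 with the combination, -0.31 with LNP-cGAMP, -0.03 with anti-PD-L1 and -0.19 with PBS. Between Gzma and Gzmb it was 0.73 with the combination, 0.54 with LNP-cGAMP, 0.43 with anti-PD-L1 and 0.49 with PBS. These coefficients describe cells that share a library and differ in depth.

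Type I interferon-stimulated genes of the NK cells depended on the Cd74-high cells. With all members, 0 of 16 measured genes were higher than PBS in any treated library, and those lower numbered 4 with the combination, 3 with LNP-cGAMP and 2 with anti-PD-L1, with medians of -0.56 with the combination, -0.26 with LNP-cGAMP and -0.53 with anti-PD-L1. Over all genes the lower ones were 4.5% with the combination, 4.75% with LNP-cGAMP and 4.09% with anti-PD-L1. Isg15, an interferon-induced ubiquitin-like protein, was at 72.7 CPM in the combination, 81.1 CPM in LNP-cGAMP, 153 CPM in anti-PD-L1 and 304 CPM in PBS, but 110 of 115 PBS UMIs lay in the Cd74-high cells. Without those cells Isg15 was at 32.5 CPM in the combination, 69.3 CPM in LNP-cGAMP, 89.7 CPM in anti-PD-L1 and 21.9 CPM in PBS.

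Without the Cd74-high cells the medians of the interferon list were 0.04 with the combination, 0.34 with LNP-cGAMP and -0.17 with anti-PD-L1, so that the direction turned in the combination and in LNP-cGAMP. The counts of higher genes were 0 of 10 with the combination, 2 of 13 with LNP-cGAMP and 0 of 9 with anti-PD-L1, and Bst2 and Ifi27l2a were those of LNP-cGAMP. Among all genes 1.42% with the combination, 2.97% with LNP-cGAMP and 0.867% with anti-PD-L1 were higher in these cells. Bst2 (tetherin) was at 126 CPM in the combination, 178 CPM in LNP-cGAMP, 122 CPM in anti-PD-L1 and 48.2 CPM in PBS in these cells. Irf7, a regulator of interferon production, was at 84.4 CPM in the combination, 134 CPM in LNP-cGAMP, 81 CPM in anti-PD-L1 and 48.2 CPM in PBS. With each cell thinned to 1000 UMIs, the LNP-cGAMP shares among all NK members, against Lyz2-high cells, were 16.5% against 47.1% for Bst2, 14.3% against 80.5% for Ifi27l2a and 9.89% against 73.6% for Irf7. How far RNA of Lyz2-high cells entered the NK values of these genes was not tested. Among cells that were not Cd74-high, the highest LNP-cGAMP cell held interferon-list UMIs at 387 per 10000, against an upper quartile of 39. The highest cells of the other libraries held 58.3 per 10000 in the combination, 175 in anti-PD-L1 and 51.9 in PBS. How far such single cells carried the interferon values was not tested. MHC class I genes, which interferons also induce, had 0 of 16 measured genes past 2-fold with all members, and H2-K1 was at 3206 CPM in the combination, 3366 CPM in LNP-cGAMP, 3910.2 CPM in anti-PD-L1 and 2805 CPM in PBS.

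**Figure D5:**
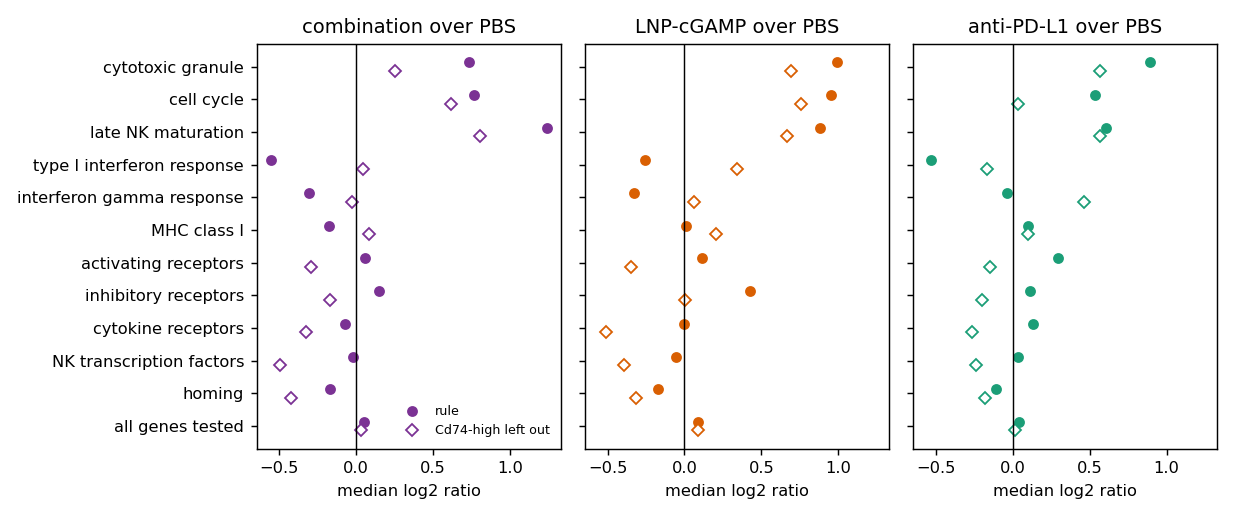
Median log2 ratio of the measured genes of each list in the summed NK cells, with 1 panel for each treated library over PBS, filled points for all members and open diamonds without the Cd74-high cells. The granule, cell-cycle and late NK lists lie right of 0 against PBS in the combination and in LNP-cGAMP, and the type I interferon list changes side in both when the Cd74-high cells are left out.

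The lowest genes against PBS were those of the Cd74-high cells. Cd74 was at 1049 CPM in the combination, 306 CPM in LNP-cGAMP, 1718 CPM in anti-PD-L1 and 10818 CPM in PBS and Ifitm1 at 449 CPM in the combination, 208 CPM in LNP-cGAMP, 648 CPM in anti-PD-L1 and 5087 CPM in PBS with all members. Genes lower than PBS numbered 74 with the combination, 81 with LNP-cGAMP and 67 with anti-PD-L1 with all members. Without the Cd74-high cells they numbered 17 (1.05%) with the combination, 33 (1.96%) with LNP-cGAMP and 21 (1.3%) with anti-PD-L1. Genes higher than PBS numbered 23 with the combination, 50 with LNP-cGAMP and 14 with anti-PD-L1 without those cells.

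The combination and LNP-cGAMP alone had similar levels for most genes. Of 1522 genes, 5 were higher (0.329%) and 8 lower (0.526%) in the combination, and with the Cd74-high cells left out 2 of 1516 (0.132%) and 10 (0.66%). The log2 ratio of the combination over LNP-cGAMP was -0.18 for Gzma, 0.07 for Gzmb, -0.10 for Prf1 and 0.09 for Spp1. Over the alternatives tried the Gzmb ratio reached -1.34, when members with a Cd3 UMI were left out. Ccl4 and Xcl1 were lower in the combination, at -1.68 and -1.06. Ly6c2 was at -0.94 with all members and -1.08 without the Cd74-high cells. Of the cell-cycle genes 0 of 26 passed 2-fold, with a median of -0.20.

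Against anti-PD-L1 alone, the combination held more transcripts of a few genes. Of 1533 genes, 8 were higher (0.522%) and 15 lower (0.978%), and with the Cd74-high cells left out 8 of 1520 in either direction (0.526%). Gzmb was 3.05-fold (2.74 to 3.4) and Spp1 3.3-fold (2.86 to 3.82) over anti-PD-L1. Hist1h2ap was 8.66-fold (6.4 to 12), whereas Gzma was 1.11-fold (1.06 to 1.17). Of the listed cell-cycle genes, which do not include Hist1h2ap, 0 of 22 passed 2-fold, with a median log2 ratio of 0.31. The Gzmb log2 ratio of 1.57 was 0.30 when members with a Cd3 UMI were left out. S100a9 and S100a8 were lower in the combination, and both came mostly from the 1 anti-PD-L1 cell described above.

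T cells of the same libraries are given side by side, since the Cd3 limit separates them from NK cells. Gzmb in T cells was at 3410.3 CPM in the combination, 3108 CPM in LNP-cGAMP, 2493 CPM in anti-PD-L1 and 403 CPM in PBS. The log2 ratio of the combination over anti-PD-L1 was 0.44 in T cells, against 1.57 in NK cells with all members and 0.30 in those without a Cd3 UMI. Gzma was at 508 CPM in the combination, 452 CPM in LNP-cGAMP, 185 CPM in anti-PD-L1 and 72.1 CPM in PBS in T cells. Spp1 was at 59.3 CPM in the combination, 641 CPM in LNP-cGAMP, 33.6 CPM in anti-PD-L1 and 22.4 CPM in PBS in T cells, and stood above the NK level in 0 of the 4 libraries. RNA matching near-empty droplets was estimated from the same genes as in NK cells. As a share of T cell RNA it was 14.8% with the combination, 37.4% with LNP-cGAMP, 4.8% with anti-PD-L1 and 14.1% with PBS.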

How the data were processed

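Droplet single-cell RNA sequencing (10x Genomics Chromium) of pleural fluid cells gave 4 libraries, 1 per treatment, and each was a pool of 3 mice. The deposited matrices hold whole-number UMI counts that, per the file headers, the authors made using Cell Ranger 3.0.2, on mm10 per the submitters' processing notes, with no normalization. The labels name both the v2 and the v3 kit of 3' reagents, and the version was not settled here. Near-empty barcodes are still in the matrices. The cells, gene lists and thresholds were chosen with earlier results of these data known.

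Barcodes with at least 1000 UMIs, at least 200 genes and at most 10% of UMIs from mitochondrially encoded (mt-) genes were kept. NK cells were kept barcodes with at least 2 UMIs of Ncr1, Klre1, Klrb1c and Eomes together, at most 1 UMI of Cd3d, Cd3e and Cd3g, and Lyz2 under 20 per 10000 UMIs. Lyz2-high cells were kept barcodes with Lyz2 at 20 or more per 10000 and no UMI of those marker and Cd3 genes. No doublet caller was run, and the Cd3 and Lyz2 limits are the only guard against doublets. Symbols listed under more than 1 gene were summed. For each gene, UMIs were added up over the NK cells of each library and scaled to CPM (UMIs per 1000000 UMIs of those cells). Log2 ratios were taken of (CPM + 50), which pulls the ratios of genes with low CPM towards 0. A comparison took in genes with 20 or more UMIs in its 2 libraries together and 100 CPM or more in either, and a gene was counted as higher or lower at 2-fold or more on that scale.

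For each comparison up to 8 genes of highest and 5 of lowest log2 ratio past that mark could be named, beside the genes of the lists and of the rule. Xist, Y-linked, ribosomal-protein, mt-, haemoglobin, immunoglobulin and T cell receptor variable genes were left out of that choice. Intervals are exact 95% Poisson (CPM), conditional binomial (folds) or Clopper-Pearson (shares) intervals, and reflect counting error alone. Where a share was 0, the limit given as allowed is 3 counts of the total, which is tighter than the upper end of the Clopper-Pearson interval. With a single library for each treatment no test was possible and no p-value is given. Alternatives covered the cell filters, the marker rule, the weighting of cells, thinning, the pseudocount, the gene filter, scaling and the RNA of near-empty barcodes (10 to 100 UMIs). The steps were tested on simulated counts. Python 3.11.15, numpy 2.4.6, scipy 1.17.1, pandas 2.3.3 and matplotlib 3.10.9 were used. Gene coordinates came from GENCODE on GRCm38 (the same assembly as mm10), and promoter sequences from RefSeq (GRCm38.p6).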

Additional observations from a re-analysis of the deposited data

How the results depend on the processing

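No paired analysis was possible because each treatment has 1 library, and for the same reason no replicate could be left out. Over the alternatives, 453 values of the main results stayed within their spread, 91 moved and 21 reversed, and for single genes and further lists these were 2663, 520 and 24. Gzmb, Gzma and Spp1 stood above PBS in all 3 treated libraries under every alternative run, with Gzmb at log2 ratios of at least 1.45 (combination), 2.55 (LNP-cGAMP) and 1.00 (anti-PD-L1). A library named alone stands for that library over PBS. Leaving out the Cd74-high cells, not counting Klre1, thinning the rule to 5000 UMIs, weighting without the Cd74-high cells and leaving out the highest cell were chosen after seeing the data. Unless a sentence gives it, the cause was not tested.

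With at most 5% mitochondrial UMIs the NK share was 0.506% in anti-PD-L1 and 0.767% in PBS. Higher genes then numbered 101 (combination), 124 (LNP-cGAMP) and 86 (anti-PD-L1) and 16 in the combination over anti-PD-L1, lower genes 146 (combination), 158 (LNP-cGAMP), 117 (anti-PD-L1) and 42 (combination over anti-PD-L1), the granule median of LNP-cGAMP was 1.69 and the cell-cycle medians 1.63 (combination), 1.66 (LNP-cGAMP) and 1.57 (anti-PD-L1). At 3 marker UMIs lower genes numbered 36 (combination), 52 (LNP-cGAMP) and 31 (anti-PD-L1), and higher genes 10 in anti-PD-L1 over PBS and 2 over LNP-cGAMP. With Cd3 at 0, 11 genes were higher over LNP-cGAMP and the interferon median over anti-PD-L1 was 0.12. With Lyz2 under 5 per 10000 the PBS share was 0.851% and Ccl4 of anti-PD-L1 over PBS 0.51. Without cells above 2 times the median UMI total, higher genes numbered 56 (combination), 93 (LNP-cGAMP), 11 (combination over LNP-cGAMP) and 51 (combination over anti-PD-L1), and lower genes 31 (combination) and 21 (anti-PD-L1). There the granule medians were 0.11 (combination) and 0.29 (LNP-cGAMP), the cell-cycle medians 1.53 (combination), 1.85 (LNP-cGAMP), -0.019 (anti-PD-L1) and 1.54 (combination over anti-PD-L1) and the interferon medians 0.63 (combination), 0.39 (LNP-cGAMP), 0.29 (anti-PD-L1) and 0.19 (combination over anti-PD-L1), with Cd74 at 3.33 (combination) and 1.44 (LNP-cGAMP), Ifitm1 at 2.93 (combination), 1.43 (LNP-cGAMP) and 1.52 (anti-PD-L1) and Isg15 at 0.98 (combination) and 0.87 (LNP-cGAMP).

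Without the Cd74-high cells lower genes numbered 17 (combination), 33 (LNP-cGAMP), 21 (anti-PD-L1) and 8 (combination over anti-PD-L1) and 2 were higher over LNP-cGAMP. The interferon medians were 0.044 (combination) and 0.34 (LNP-cGAMP), Isg15 0.20 (combination) and 0.73 (LNP-cGAMP) and Ifitm1 1.26 (LNP-cGAMP) and 1.22 (anti-PD-L1). Not counting Klre1 left out 1 (combination), 2 (LNP-cGAMP), 1 (anti-PD-L1) and 6 (PBS) cells, all but 1 of the LNP-cGAMP cells being Cd74-high, and gave these counts again and the same ratios to 2 decimals. Of NK, T and B cells the shares were 21.5% (combination), 38.9% (LNP-cGAMP), 19.2% (anti-PD-L1) and 32.5% (PBS), by their smaller denominator, and the rule at 5000 UMIs gave 3.54% in LNP-cGAMP.

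With cells weighted equally lower genes numbered 33 (combination), 43 (LNP-cGAMP) and 44 (anti-PD-L1) over PBS, higher genes 15 (combination), 8 (combination over LNP-cGAMP) and 13 (combination over anti-PD-L1), and the interferon medians were 0.20 for LNP-cGAMP over PBS and 0.12 over anti-PD-L1. Equal weights without the Cd74-high cells gave 28 (combination), 44 (LNP-cGAMP) and 36 (anti-PD-L1) lower genes, 8 and 14 higher over LNP-cGAMP and anti-PD-L1, interferon medians of 0.48 (combination), 0.47 (LNP-cGAMP), 0.13 (anti-PD-L1) and 0.064 (combination over anti-PD-L1), Isg15 at 0.61 (combination) and 0.93 (LNP-cGAMP), Ifitm1 at 0.71 (LNP-cGAMP) and 1.43 (anti-PD-L1) and a cell-cycle median of -0.14 in anti-PD-L1. At 1000 UMIs a cell, where fewer genes pass the filter, lower genes numbered 17 (combination), 35 (LNP-cGAMP), 27 (anti-PD-L1) and 40 (combination over LNP-cGAMP), higher genes 11 (combination), 19 (combination over LNP-cGAMP) and 17 (combination over anti-PD-L1), and the interferon medians were -1.50 for anti-PD-L1 over PBS and 1.10 over anti-PD-L1. Serpinb6b of anti-PD-L1 was then -0.10 and the cell-cycle median over anti-PD-L1 -0.22. A pseudocount of 10 CPM, which shrinks low genes less, gave 54 (combination), 97 (LNP-cGAMP), 36 (anti-PD-L1), 10 (combination over LNP-cGAMP) and 17 (combination over anti-PD-L1) higher and 117 (combination), 124 (LNP-cGAMP), 101 (anti-PD-L1) and 13 (combination over LNP-cGAMP) lower genes. At 100 CPM 17 (combination) and 28 (LNP-cGAMP) were higher, and lower genes numbered 47 (combination), 39 (anti-PD-L1), 5 (combination over LNP-cGAMP) and 9 (combination over anti-PD-L1). Without a gene filter the late NK median of the combination over PBS was -0.0011. Median scaling left 18 higher genes in the combination over PBS. After subtraction of near-empty RNA the combination over anti-PD-L1 had 14 higher genes, a granule median of 0.019 and an interferon median of 0.085. Without its highest cell S100a8 was -0.32 in anti-PD-L1 over PBS and 0.0096 in the combination over anti-PD-L1. Unthinned shares of NK cells were 84.4% (combination), 97.8% (LNP-cGAMP), 90.9% (anti-PD-L1) and 51.4% (PBS) for Gzmb and 68.8% (combination), 93.4% (LNP-cGAMP), 72.7% (anti-PD-L1) and 70.3% (PBS) for cell-cycle genes, since deeper cells show more genes. Depth limits the genes under about 100 CPM in the combination, anti-PD-L1 and PBS, whose NK cells sum to fewer UMIs than those of LNP-cGAMP.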
